A study of Callithrix jacchus with 3 samples.

Results

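Reads of 24 and 25 nt were compared between RNA recovered with MARWI and total small RNA in testis of Callithrix jacchus, the common marmoset, a monkey of the New World. Every listed sequence of 24 or 25 nt was taken, which gave 701677 distinct sequences of the 8528720 in both small RNA datasets together. The total small RNA dataset came from the testis of a wild-type animal aged 41 months. The MARWI-IP dataset was made by immunoprecipitating MARWI from testis lysate of wild-type animals aged 41 and 51 months, and its 2 replicates were deposited as 1 column of reads. Both kinds of library were made with NEBNext small RNA reagents, and gel sizing is described for total small RNA. With 1 column in each group there is no spread between samples, and no test between the datasets was made. Intervals are exact (Clopper-Pearson) 95% intervals of read counts without molecular identifiers, and they cover counting error alone. Antibody recovery, library preparation and the second animal cannot be told apart from each other in any difference below.

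MARWI corresponds in the marmoset to mouse MIWI, a PIWI protein of meiotic and postmeiotic male germ cells. PIWI proteins carry piRNAs, which are cut from long single-stranded transcripts, mostly begin with U and are trimmed at the 3′ end to the length that the protein protects. MicroRNAs (miRNAs) are shorter, are bound by Argonaute proteins of another branch of the family, and pair with their targets through a seed at bases 2 to 8. Lengths of 24 and 25 nt lie between these classes, so such a read can be a long miRNA form, a shortened piRNA or a fragment of another RNA.

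The sequences that led the 24 and 25 nt reads of MARWI-IP are shown first, because each was also the start of longer reads. They are written 5′ to 3′ as DNA letters in the order of their MARWI-IP reads. Lower case is the 24 or 25 nt sequence and capitals are the bases by which its commonest form of 28 to 31 nt in MARWI-IP was longer. The tenth is not reported here.
IP1: tggaagaaaagttggatgcatttgaAGTC
IP2: tgtaatcctaactgtaatctttagAGCTTG
IP3: tagtaacttttgaatgagtcaagtTGAAGG
IP4: tatcaagtgaatagtagttttgactAAGCT
IP5: tagtaacttttgaatgagtcaagttGAAGG
IP6: ttgatggtaattggaagagcatcttGGGT
IP7: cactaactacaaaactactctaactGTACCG
IP8: tgtgatcagagacaataatagagacAGAAA
IP9: tggtgttcttggagtggaactctggAGC
Of these 9, IP7 alone does not begin with U, and IP3 and IP5 are neighbouring lengths of 1 start. The base after the short form is A and the next G in IP1, IP2, IP8 and IP9.

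The leading sequences of total small RNA were of another kind. Of the 10, 5 are forms of known miRNAs of 24 nt, 1 of 25 nt, and 1 is an inner piece of a tRNA. They are shown with the seed in capitals, named from knowledge of mammalian RNAs, since no marmoset miRNA table was used here.
miR-191-5p form: cAACGGAAtcccaaaagcagctgt
miR-30e-5p form: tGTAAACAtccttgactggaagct
miR-30a-5p form: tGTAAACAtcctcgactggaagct
miR-30c-5p form: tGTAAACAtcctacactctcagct
miR-7-5p form: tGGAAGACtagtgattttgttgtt
miR-449c-5p form: tAGGCAGTgtattgctagcggctgt
The 3 miR-30 forms share 1 seed. The other leaders are IP9 and 3 sequences shown here in lower case. T3 and T6 begin with U, and the tRNA piece spans the anticodon region of the initiator methionine tRNA.
T3: tgacttattcctcgacagactgatt
T6: tgagctggagctatttggactagta
tRNA-iMet piece: cggaagcgtgctgggcccataaccc

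Reads of 24 and 25 nt were a small fraction of both datasets. In total small RNA they were 486333 reads, or 3.80% (3.79 to 3.81%) of the 12792323 reads of 24 to 33 nt, the range that both datasets list. In MARWI-IP they were 3260866 reads, or 2.96% (2.96 to 2.96%) of 110209593. The 25 nt reads outnumbered the 24 nt reads in both, at 280247 against 206086 in total small RNA and 1962352 against 1298514 in MARWI-IP. Few sequences were shared but they carried most reads. The 72720 sequences found in both were 36.7% of the distinct sequences of total small RNA and 12.6% of those of MARWI-IP, and held 69.5% and 69.9% of the reads. Sequences read once were 80.4% of distinct sequences in total small RNA compared with 68.6% in MARWI-IP.

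The first base was U in most reads of both datasets, with a small difference in share. U opened 80.1% (79.9 to 80.2%) of 24 and 25 nt reads in total small RNA and 82.8% (82.8 to 82.9%) in MARWI-IP. C was the base with the clearest lower share in MARWI-IP, at 5.90% against 8.38%. A opened 6.79% in MARWI-IP against 7.16% in total small RNA, and G opened 4.48% and 4.41%. Both datasets had less U than their own reads of 28 to 31 nt, where U opened 85.4% in total small RNA against 90.3% in MARWI-IP. The order of the datasets depended on how sequences were weighted. Counting each distinct sequence once, U opened 75.8% in total small RNA against 65.9% in MARWI-IP, so the order turned. Among sequences with 100 reads or more U opened 76.9% of the reads in total small RNA compared with 89.4% in MARWI-IP. This cutoff is a raw count, and it stands for a smaller share of the reads in the deeper MARWI-IP. Among sequences read once the shares were 73.3% and 62.2%. The abundant short sequences of MARWI-IP were thus richer in U than its rare ones, and the span in total small RNA was narrower at these raw cutoffs.

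**Figure D1:**
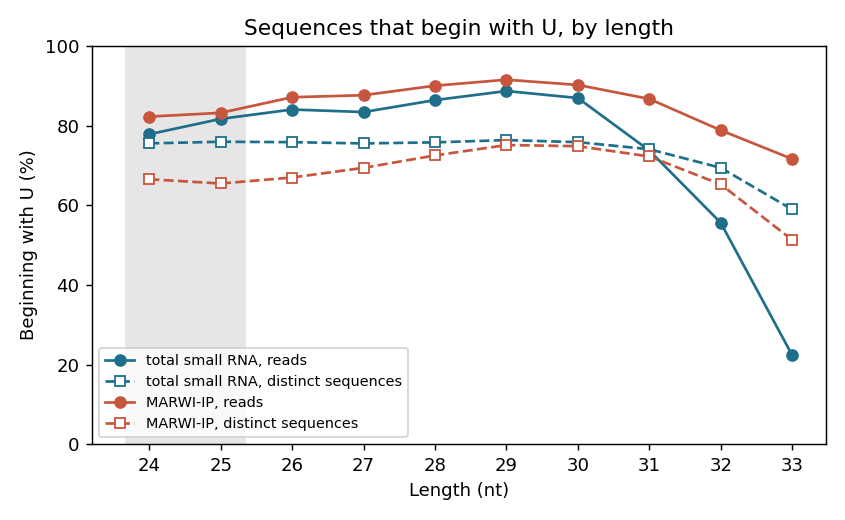
Share of reads (filled circles) and of distinct sequences (open squares) that begin with U, in percent, at each length from 24 to 33 nt, in total small RNA (blue) and MARWI-IP (orange); the grey band marks 24 and 25 nt. By reads MARWI-IP lies above total small RNA at every length shown, and by distinct sequences it lies below it.

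An A at position 10, the mark left where piRNAs are made by reciprocal cleavage, was read in 29.7% of 24 and 25 nt reads of total small RNA and 32.4% of those of MARWI-IP. At 28 to 31 nt the shares were 31.1% and 32.1%. Among reads that do not begin with U, the ones in which such an A is looked for, A stood at position 10 in 37.0% of short reads in total small RNA against 33.9% in MARWI-IP. At 28 to 31 nt these shares were 35.8% and 39.0%, in the other order. Over all reads A was more frequent at position 5 than at position 10, in 40.2% of short reads of total small RNA and 43.9% of those of MARWI-IP, and in 37.7% and 44.2% of the longer ones. Among reads that do not begin with U this did not hold in total small RNA, where A stood at position 5 in 33.05% of short and 27.2% of longer reads. In MARWI-IP these shares were 38.1% and 40.4%.

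Most short reads were 3′-shortened forms of a longer read. A 24 or 25 nt sequence was counted as such where it equalled the first bases of a 28 to 31 nt sequence of the same dataset, which says nothing of how the shorter read arose. This held for 93.4% (93.3 to 93.4%) of the short reads in MARWI-IP and 77.0% (76.9 to 77.2%) in total small RNA. MARWI-IP was sequenced more deeply, which gives a short sequence more chances of a match. With the longer forms of MARWI-IP thinned by formula to the depth of total small RNA, the expected share was 88.1%, compared with 77.0% in total small RNA. A match at the 3′ end alone, which is a form shortened at its 5′ end, held for 2.08% of reads in MARWI-IP against 2.86% in total small RNA. A match strictly inside a longer sequence held for 0.918% and 1.96%. No match of any kind was found for 3.63% and 18.1%. Over distinct sequences the shares with the same start were 67.6% in MARWI-IP compared with 51.7% in total small RNA.

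**Figure D2:**
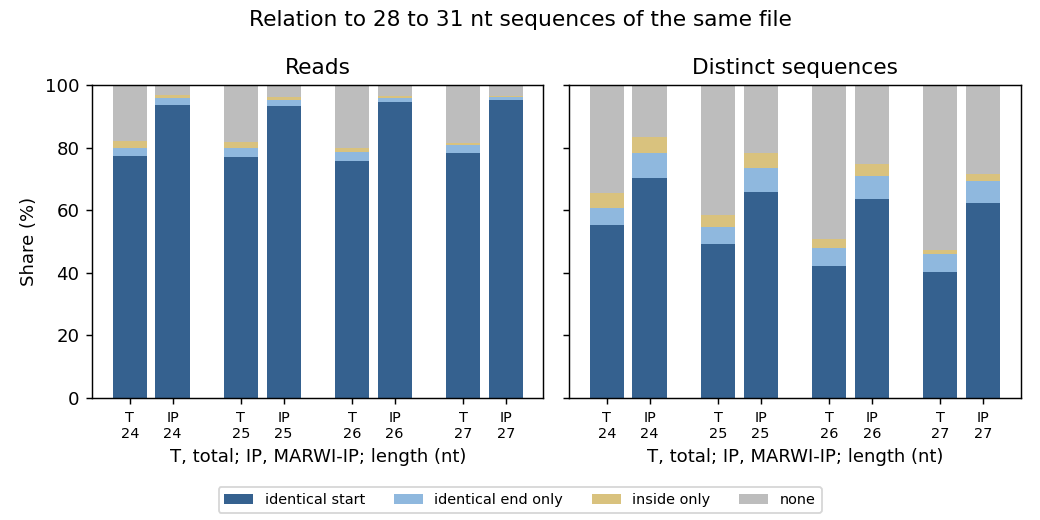
Share of reads (left) and of distinct sequences (right), in percent, by their relation to 28 to 31 nt sequences of the same dataset, at 24 to 27 nt in total small RNA (T) and MARWI-IP (IP). The dark segment, an identical start, takes 93.4% of 24 and 25 nt reads in MARWI-IP against 77.0% in total small RNA, and the grey segment, no match, is larger in total small RNA at every length.

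The share with a longer form differed by first base. Of short reads that begin with U, 96.2% in MARWI-IP against 81.1% in total small RNA had a longer form with the same start. Reads that begin with A had the lowest shares, 76.4% and 54.5%. The shares were 82.8% and 66.0% for C and 81.4% and 61.0% for G. A match at the 3′ end alone, rare among U reads at 0.676% in MARWI-IP compared with 1.55% in total small RNA, held for 10.7% and 8.56% of reads that begin with A. The short reads without any longer form of the same start began with U in 47.9% of cases in MARWI-IP against 65.9% in total small RNA.

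The longer form was mostly the more abundant one. Its reads exceeded those of the short form for 86.2% of short reads in MARWI-IP against 60.4% in total small RNA. They were at least 10 times as many for 63.8% and 36.3%. The reverse, longer reads at most as many as the short ones, held for 7.19% in MARWI-IP compared with 16.6% in total small RNA. By length, the commonest longer form of MARWI-IP short reads was 29 nt for 41.5% and 30 nt for 34.0%, against 38.6% and 36.8% of all its 28 to 31 nt reads. In total small RNA it was 28 nt for 26.5%, against 16.0% of all its 28 to 31 nt reads. The 26.5% includes the miR-30e-5p form, whose 28 nt form had 2 reads.

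Sorting the short reads by the commonest length of their 5′ end put numbers on the classes. All reads of total small RNA sharing the first 18 nt were pooled, and the length with most reads was taken where there were 20 reads or more. Ends whose commonest length was 28 to 31 nt held 67.2% of the 24 and 25 nt reads of MARWI-IP and 45.3% of those of total small RNA. Ends commonest at 20 to 23 nt, the usual length of miRNAs, held 4.73% of the short reads of total small RNA and 0.221% of those of MARWI-IP, a share 21.4-fold lower. Ends commonest at 24 or 25 nt held 10.3% and 1.77%, or 5.82-fold lower in MARWI-IP. Ends commonest at 26 or 27 nt held 5.98% and 2.00%, or 2.998-fold lower. Ends with under 20 reads held 32.2% and 27.4%. The class was set from total small RNA, so it is not independent of the reads of that dataset.

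Single sequences differed in both directions between the datasets. The 751 sequences of 24 or 25 nt with a mean share of at least 0.01% were compared, and a 4-fold ratio of shares either way was counted. Of these, 158 had a share at least 4-fold higher in MARWI-IP, which is 21% of those compared, and 175 had one at least 4-fold lower, which is 23.3%. Among 726 sequences of 28 to 31 nt under the same rule the percentages were 9.37% and 14.5%. A sequence could enter through its share in 1 dataset alone, so these counts and medians describe the sequences that entered and not all members. The median ratio of MARWI-IP to total was 1.93 at 24 and 25 nt and 1.58 at 28 to 31 nt. Where the 5′ end was commonest at 28 to 31 nt, 134 of 587 sequences were at least 4-fold higher in MARWI-IP, 52 were at least 4-fold lower, and the median ratio was 2.35. Where it was commonest at 20 to 23 nt, 26 of 29 were at least 4-fold lower and the median ratio was 0.00382. The counts of sequences at least 4-fold lower were 47 of 60 for ends commonest at 24 or 25 nt and 44 of 54 at 26 or 27 nt. These classes were set from the reads of total small RNA, which also enter the ratio. The counts and medians by class are therefore descriptions only. Of the 100 sequences whose longer reads in total small RNA were no more than the short ones, 82 were at least 4-fold lower in MARWI-IP. That set was chosen by the short reads of total small RNA, which also enter the ratio, so many short reads there favour a low ratio in advance. The count is therefore a description only.

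**Figure D3:**
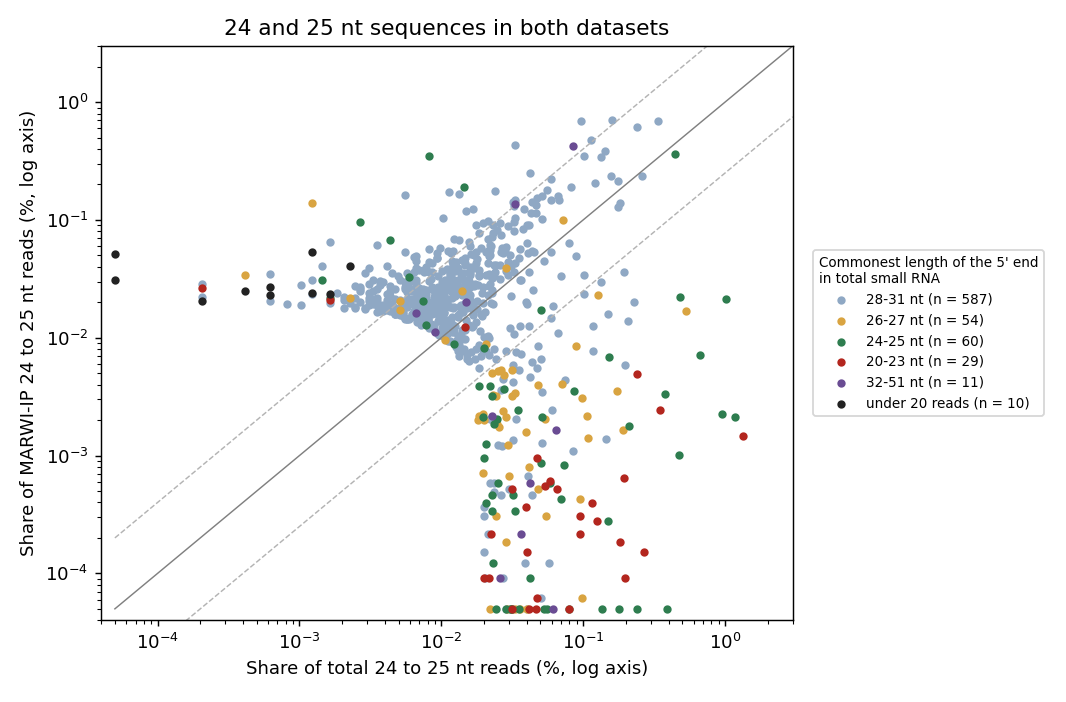
Share of the 24 and 25 nt reads held by each of the 751 compared sequences, in percent, in total small RNA (horizontal) and MARWI-IP (vertical), on log axes; colours give the commonest length of the 5′ end in total small RNA, the solid line marks equal shares and the dashed lines a 4-fold ratio. Points on the left edge have 0 reads in total small RNA, and points on the bottom edge have 0 or 1 read in MARWI-IP. Most ends commonest at 20 to 27 nt lie below the lower dashed line.

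The miRNA forms that led total small RNA had few reads in MARWI-IP. The miR-191-5p form had 6554 reads in total small RNA, 1.35% of its 24 and 25 nt reads, and 48 in MARWI-IP, or 0.00147%. Its share was 916-fold lower in MARWI-IP. In total small RNA the reads of this end were 8336 at 23 nt, 4970 at 22 nt and 25 at 28 to 31 nt in all, so the 24 nt form belonged to a miRNA-length end. The miR-30e-5p form had 5730 reads against 69, the miR-30a-5p form 4610 against 73 and the miR-30c-5p form 2299 against 33. These 3 shares were between 423-fold and 557-fold lower in MARWI-IP. For miR-30e-5p and miR-30a-5p the 24 nt form was itself the commonest length, at 74.3% and 56.2% of the reads of the end. The miR-7-5p form had 3220 reads against 235, a share 91.9-fold lower.

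Members of the miR-17 family, known for their place in clusters that promote cell proliferation, had low MARWI-IP reads as well. The 3 forms shown, with the seed in capitals, were among the 5 leading sequences without a longer form of 28 to 31 nt in total small RNA. Those of miR-17-5p and miR-20a-5p were also among the 5 lowest ratios, so their low MARWI-IP reads follow from that choice.
miR-17-5p form: cAAAGTGCttacagtgcaggtagt
miR-20a-5p form: tAAAGTGCttatagtgcaggtagt
miR-93-5p form: cAAAGTGCtgttcgtgcaggtagt
Their reads in total small RNA and MARWI-IP were 963 and 3 for miR-17-5p, 1314 and 5 for miR-20a-5p, and 613 and 9 for miR-93-5p. The ratio for miR-17-5p, 0.000465, rests on 3 reads and has an interval of 9.6e-05 to 0.00136. The miR-125a-5p form, with no longer form in either dataset, had 1158 and 161 reads.

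Of the miRNA forms named, that of miR-449c-5p had the smallest difference in share between the datasets. Members of the miR-449 family are known for high levels in testis and ciliated epithelia. The 25 nt form had 2340 reads in total small RNA against 724 in MARWI-IP, a share 21.7-fold lower. Reads of 28 to 31 nt with the same start were 799 in total small RNA compared with 7850 in MARWI-IP. In MARWI-IP the reads of this end peaked at 29 nt, with 6063, and at 26 nt, with 4272, while in total small RNA they peaked at 25 nt. The 25 nt form was 42.4% of the reads of the end in total small RNA against 4.94% in MARWI-IP, and the 29 nt form was 11.6% and 41.3%. Shares of an end, here and below, are of all listed lengths, 20 to 51 nt in total small RNA and 24 to 33 nt in MARWI-IP. Reads at lengths that MARWI-IP does not list thus lower these shares in total small RNA. Reads with the first bases of the miR-30c-5p form were commonest at 30 nt in MARWI-IP, with 31.6% of 465. In total small RNA they were commonest at 24 nt, with 38.5%. Such an end pools all sequences with those first bases, so these shares need not be of miR-30c-5p alone. At 24 nt it had 2304 reads in total small RNA, against 2299 of the form itself. Reads of 28 to 31 nt that begin with the whole form were 346 in MARWI-IP against 33 in total small RNA. Their commonest sequence ended in GTGGAA in MARWI-IP (107 reads) and in GTGAGCT in total small RNA (11 reads). The pooled end is thus not 1 sequence that was longer in MARWI-IP. For the miR-7-5p form the reads of 28 to 31 nt were 127 and 9. These counts and those of miR-449c-5p are raw and not scaled for depth. MARWI-IP had 110209593 reads of 24 to 33 nt against 12792323 in total small RNA.

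The tRNA-iMet piece gave the lowest ratio. It had 1886 reads in total small RNA, 0.388% of the 24 and 25 nt reads, and 0 of 3260866 in MARWI-IP, which allows a share of up to 9.2e-05%. Its share was at least 4215-fold lower. A 24 nt sequence that was not named had 1169 reads against 0, a share at least 2613-fold lower.

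T3 and T6 were 2 further leaders of total small RNA, and the end of T3 differed in length between the datasets. T3 had 4946 reads in total small RNA against 690 in MARWI-IP, a share 48.1-fold lower. Its end was commonest at 25 nt in total small RNA, with 61.8% of reads, and at 29 nt in MARWI-IP, with 60.6%. T6 had 2579 reads against 551, a share 31.4-fold lower, and its end was commonest at 27 nt in both, with 11780 and 1216 reads (61.7% and 54.9% of the end).

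Among the 9 leaders of MARWI-IP printed here, the differences were smaller. IP1 had 22870 reads in MARWI-IP against 773 in total small RNA, a share 4.41-fold higher (4.11 to 4.75). Its reads of 28 to 31 nt were 406178 and 11316. IP3 had 22644 and 1627 reads, a share 2.08-fold higher, beside 523182 and 44394 longer reads. IP5, which is IP3 with 1 more base, had 15548 and 549 reads, a share 4.22-fold higher. IP4 had 20000 and 1168 reads, IP7 had 13828 and 411, and IP8 had 12665 and 690. IP6 had the highest ratio of these 9, with 14209 reads in MARWI-IP against 160 in total small RNA, a share 13.2-fold higher (11.3 to 15.6). Its longer reads were 980471 and 11956, so the short form was a minor one of its end in both.

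IP2 and IP9 differed from these in that the short form was a main form of its end. IP2 had 22658 reads in MARWI-IP, 49.1% of the reads of its end, with the remainder mostly at 30 nt (23.5%) and 31 nt (14.3%). In total small RNA its 466 reads were 17.6% of the end, and 31 nt was commonest at 40.5%. IP9 was the commonest form of its end in both datasets, with 11850 reads (60.6%) in MARWI-IP against 2148 (45.0%) in total small RNA. It was also the only leader common to both, and its share was near equal, at 0.363% and 0.442% of the 24 and 25 nt reads. Its next form was 28 nt, 3 bases longer.

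The 3 sequences printed next were among the 5 with the highest ratios when counts under 3 reads in either dataset are set to 3. H1 and H3 carry the bases of their commonest longer form in MARWI-IP in capitals. For H2, with 57 longer reads of the same start in MARWI-IP, the capitals are the bases that the commonest 28 to 31 nt read with the same 3′ end has before it.
H1: tggatgatgtcttgaacctgttggAGAGA
H2: TTGAtggtaattggaagagcatcttgggt
H3: gattaaatgtcctgtcctctgagcAAAT
H1 had 4506 reads in MARWI-IP compared with 6 in total small RNA, a share 112-fold higher (51.4 to 305). Its end was spread over 24 to 29 nt in MARWI-IP, with 4511 reads at 24 nt, and in total small RNA it was commonest at 26 nt with 167. H2 had 1667 reads against 0, a share 82.9-fold higher (28.3 to 402) with the 0 set to 3 reads. The longer sequence it ends is the commonest form of IP6, with 729827 reads in MARWI-IP against 8716 in total small RNA, and H2 lacks its first 4 bases. H3 had 1003 reads against 0, a share 49.9-fold higher (17.0 to 242) with the 0 set to 3 reads. Its longer reads were 11490 in MARWI-IP against 4 in total small RNA.

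Sequences that share the 3′ end of a longer read also led the MARWI-IP reads that have no longer form of the same start. Of the 5 leading ones 1 is not reported here. The others, with the first bases of the 28 to 30 nt read that shares their 3′ end in capitals, were as follows.
N1: TTCTTTagtagcacgtctggtattttggtg
N2: TATTATctcatttaagcttccgcacctctg
N3: TACAacaccctggttactcctatctgaat
N5: TATTaggagtggcagtgcaatggatggg
Their reads in MARWI-IP and total small RNA were 811 and 2 for N1, 355 and 2 for N2, 339 and 28 for N3, and 196 and 0 for N5. The longer reads were 306971 in MARWI-IP for N1, 37405 for N2, 104 for N3 and 25975 for N5. For N3 alone the longer read was the rarer form. All 4 longer reads begin with U and none of the 4 short ones does.

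How often a given 5′ end was shortened was measured at ends, defined by the first 24 nt, with at least 100 reads of 28 to 31 nt in both datasets. There were 12020 such ends, and they held 51.7% of the 24 and 25 nt reads of MARWI-IP and 37.4% of those of total small RNA. The median was 2.04 short reads per 100 long reads in MARWI-IP (quartiles 0.842 and 4.62) and 1.71 in total small RNA (0.640 and 3.91). The value was higher in MARWI-IP at 6788 ends (56.5%), lower at 5019 and equal at 213. Pooled over these ends, the order was the other way, with 2.63 in MARWI-IP compared with 2.996 in total small RNA. Across the ends the values of the datasets had a Spearman rho of 0.61, a description only, since ends share their libraries and their long reads. At least 10 short reads per 100 long were found at 1041 ends in MARWI-IP (8.66% of the 12020) against 849 in total small RNA (7.06%). The 415 ends found in both were 39.9% and 48.9% of these.

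The extremes of this measure were single ends. Among the 817 ends with at least 1000 long reads in both, the end of T3 had the highest value in total small RNA, 351 short reads per 100 long (5012 and 1429 reads), and 4.66 in MARWI-IP (753 and 16170). The end of IP9 had the highest value in MARWI-IP, 173 (11914 and 6894 reads), and 88.6 in total small RNA. The end of IP2 came next in MARWI-IP with 106, against 24.3 in total small RNA. Another 3 ends with high values in total small RNA had 34.0, 31.7 and 31.5 there, and 3.61, 0.965 and 0.495 in MARWI-IP. At these 3 ends the short form was the less frequent in MARWI-IP, and at IP9 and IP2 it was the more frequent there. The ends were ranked by their value in 1 dataset, which favours a lower value in the other in advance. These directions are therefore a description only.

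The 3′ ends of the short forms stood at a common sequence context in both datasets. The bases that follow the 3′ end were read from the commonest longer form. The first was A for 39.4% of 24 nt and 47.1% of 25 nt shortened reads in total small RNA, and for 47.3% and 47.1% in MARWI-IP. At the same positions of all 28 to 31 nt reads A stood in 24.1% to 25.8%. C as the first following base was rare, between 9.24% and 10.5%, against 20.1% to 25.8% in the longer reads. The second following base was G for 40.0% and 45.9% in total small RNA and 42.8% and 43.8% in MARWI-IP, against 22.4% to 25.3%. The pair AG, read on the sequenced strand, followed 20.8% of 24 nt and 28.4% of 25 nt shortened reads in total small RNA, and 26.7% and 26.3% in MARWI-IP. It stood at these positions in 6.33% and 8.21% of all 28 to 31 nt reads of total small RNA and in 6.30% and 7.66% of those of MARWI-IP. Counting distinct sequences once, AG followed 18.3% and 17.8% in total small RNA and 16.0% and 15.5% in MARWI-IP.

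**Figure D4:**
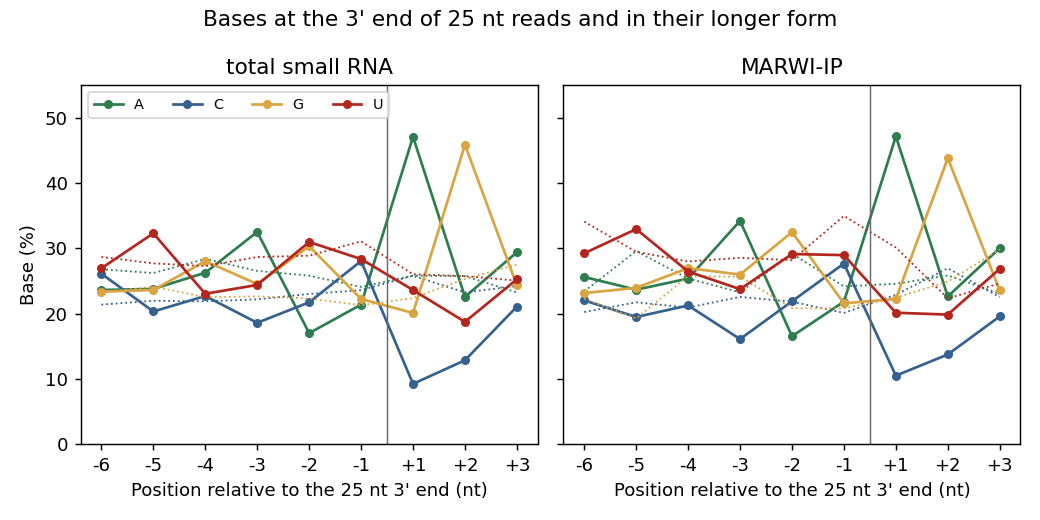
Share of each base, in percent, from 6 bases before to 3 bases after the 3′ end of 25 nt reads that have a longer form, in total small RNA (left) and MARWI-IP (right); solid lines are the short reads, dotted lines the same positions of all 28 to 31 nt reads, and the vertical line is the 3′ end. A stands out at +1 (47.1% in both) and G at +2 (45.9% and 43.8%), where C is low.

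The same context appeared when each end was counted once rather than by reads. Of ends with at least 100 long reads in the dataset concerned, those with AG after base 24 had a median of 3.07 reads of 24 nt per 100 long in total small RNA (959 ends) and 3.25 in MARWI-IP (4784 ends). Ends with neither A first nor G second had 0.299 and 0.400. After base 25 the medians were 4.92 and 5.11 with AG and 0.533 and 0.725 with neither. Ends with A and no G, or G and no A, lay between. AG had the highest median of the 16 pairs at both lengths in both datasets. The next highest at 24 nt were AT in both datasets, with 0.942 and 1.09. Of ends followed by AG after base 24, 7.51% had no read of 24 nt in total small RNA compared with 4.54% in MARWI-IP, against 42.3% and 34.5% of ends with neither base. Reads of 26 nt showed the same, with medians of 7.51 and 7.96 with AG and 0.872 and 1.16 with neither, so the context was not particular to 24 and 25 nt.

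**Figure D5:**
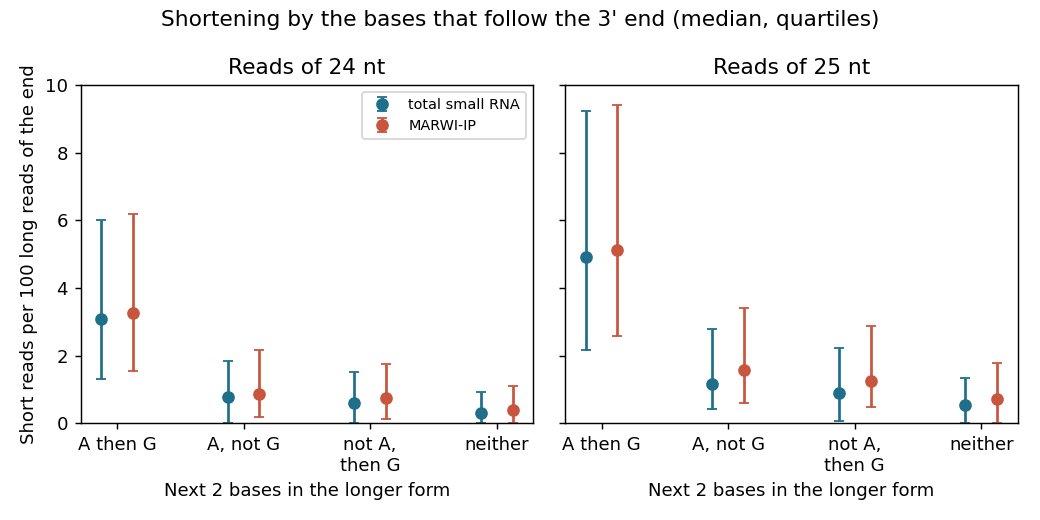
Reads of 24 nt (left) or 25 nt (right) per 100 reads of 28 to 31 nt of the same 5′ end, by the 2 bases that follow the short form in the longer one, in total small RNA (blue) and MARWI-IP (orange). Points are medians over ends with at least 100 long reads and bars span the quartiles; ends followed by A then G lie highest in both datasets, at 3.07 and 3.25 for 24 nt.

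The bases further on moved with the number of short reads as well. Where AG was followed by AT, the median at 24 nt was 6.55 in total small RNA (60 ends) and 7.58 in MARWI-IP (346 ends), the highest of the 16 continuations of AG in both. Where it was followed by A and a base other than T, the medians were 2.46 and 2.78. AG followed by TT had 6.17 and 6.09. The 3′ adapter of NEBNext small RNA libraries is known to begin with AGAT, so the context resembles the first bases of the adapter. How adapters were trimmed is not given in the sources used here, and the part of trimming in the 24 and 25 nt reads was not tested.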

How the data were processed

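The deposited small RNA tables hold whole-number read counts per distinct sequence, as the authors made them, with no normalization and no genome position. Per the submitters' processing notes Bowtie, TopHat and Cufflinks were used. Their roles and settings, the build and the trimming were not given in the sources used here. Lengths run from 20 to 51 nt in total small RNA and from 24 to 33 nt in MARWI-IP. The sequences and lists were chosen with earlier results of these data known, and the analysis of the bases after the 3′ end was chosen after the data were seen. Shares are of the 24 and 25 nt reads of a dataset. Ratios of shares have exact intervals from the binomial of the read counts, and a count of 0 was set to 3 reads. For ranking and for the 4-fold counts, every count under 3 was set to 3. Longer forms were matched exactly, over 28 to 31 nt. Thinning used the expected chance that at least 1 longer read is drawn. Named sequences were the 10 leaders of each dataset, the 5 highest and lowest ratios, the 5 ends with most short reads per 100 long reads and the 5 leading sequences without a longer form, described in part. The miRNA forms were named from knowledge. The RNA-seq table was not used here, and 2 sequences are not reported. Counting was checked on simulated reads. Scripts ran under Python 3.11.15 with scipy 1.17.1, pandas 2.3.3, numpy 2.4.6 and, for plots, matplotlib 3.10.9.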

Additional observations from a re-analysis of the deposited data

How the results depend on the processing

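No paired analysis was possible because each dataset is 1 column of reads, and no replicate could be left out. Matching to a miRNA table, with its alternatives, was not run, since no such table was used here. Values are given as total small RNA and then MARWI-IP. The share that begins with U was 75.8% and 65.9% over distinct sequences, the only alternative that turned the order, and 83.3% and 85.7% without sequences read once. It was 77.8% and 82.3% at 24 nt, 81.7% and 83.2% at 25 nt, and 82.7% in MARWI-IP without the 10 leaders. The share with a longer form was higher in MARWI-IP under every alternative run. It was 51.7% and 67.6% over distinct sequences, 74.9% and 93.01% without the leaders, 94.2% and 98.6% without sequences read once, and 93.5% and 93.3% in MARWI-IP at 24 and 25 nt. It was 60.6% and 86.4% with at least 10 longer reads, 60.4% and 86.2% where longer reads exceed the short ones, and 79.9% and 94.3% with longer forms of 26 to 33 nt. MARWI-IP with its longer forms thinned to the other depth gave 88.1% of reads. With short and longer forms both thinned, an alternative chosen after seeing the data, it gave 68.1% of distinct sequences. Without ends commonest at 20 to 23 nt, also chosen afterwards, total small RNA had 82.2% with U first and 78.0% with a longer form. Of all total small RNA reads 3.44% were 24 or 25 nt. The 10 leaders held 7.47% and 5.14%, the 100 leaders 18.5% and 15.0%, and the 10 leading ends of 18 nt 7.96% and 6.40%. A 2-fold ratio counted 363 sequences higher in MARWI-IP and 203 lower. A mean share of at least 0.05%, which fewer sequences reach, left 22 higher and 40 lower of 108. The median of short per 100 long reads moved by less than its spread over ends under all 3 alternatives, and the pooled value alone was higher in total small RNA. The depth limits ratios of sequences with few reads: a count of 0, set to 3 reads, stands at 0.000617% in total small RNA against 9.2e-05% in MARWI-IP.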
